A study of Homo sapiens with 17 samples.

Results

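Of the 17 libraries, 3 carried a plasmid label naming LAPTM4B, and they are set here against the 14 libraries with any other label. The 3 are the libraries titled LAPTM4B 1 and LAPTM4B 2 and the library 22-LAPTM4B. They were chosen by label alone, and whether a label starts with a number and a hyphen (called prefixed here) was a covariate.

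The cells were K562 throughout, an established line from a human chronic myeloid leukaemia with erythroid features. Plasmids for CRISPR activation of a gene were electroporated, an antisense oligonucleotide followed, and processing was on day 6, per the labels. By the labels this treatment covers Neg, RFP and GFP too, but what the plasmid label Neg stands for is not given. The libraries were primed on total RNA by oligo-dT with a 12 bp molecular identifier, so that reads come from the 3′ ends of polyadenylated transcripts. The series title concerns GOLGA8 and the uptake and activity of such oligonucleotides.

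The 14 other libraries were 11 without a prefix (Neg, RFP, GFP, E7, TTR, TRPC5OS, ADORA2A, UBE2V1, COL6A6, GOLGA8N 1 and GOLGA8N 2) and 3 with one (20-ARSF, 21-CTPS2 and 23-GOLGA8N). They are a mixture of labels and not a uniform untreated group. The sources used here do not give what the prefixes, the titles 1 and 2, Neg and E7 stand for, which guides and which oligonucleotide were used, or whether the cultures were separate. The spread behind each p-value is therefore that of these libraries alone and may be technical.

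LAPTM4B is a membrane protein with several transmembrane segments that resides in late endosomes and lysosomes. It binds NEDD4-family ubiquitin ligases through PY motifs, and has been linked to ceramide export from late endosomes, to recruitment of the leucine transporter SLC7A5 with SLC3A2 to lysosomes, where leucine feeds mTORC1, and to the sorting of the EGF receptor. Its relatives LAPTM4A and LAPTM5 are also lysosomal proteins, LAPTM5 chiefly in blood cells.

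The LAPTM4B libraries held 3581985 to 3620995 estimated reads in all transcripts, and the others 569057 (GFP, the shallowest) to 4236396 (20-ARSF). Values are CPM, scaled by each library's reads in genes, and 3 reads were worth 0.859 to 0.868 CPM in LAPTM4B libraries and 0.733 to 5.45 CPM in the others. Erythroid markers were present in all 17 libraries, with 112 to 185 CPM for the transcription factor GATA1 and 2236 to 4777 CPM for the fetal globin HBG2. The labels call the cells lymphoblasts, but the B cell markers MS4A1 and CD79B and the T cell markers CD3E and CD2 had 0 reads in every library, as did the myeloid marker MRC1, the platelet markers PF4 and GP9 and the fibroblast markers PDGFRB and LUM. The T cell gene CD3D had 33.2 to 119 CPM. In these bulk samples, fewer cells of a type and less RNA per cell cannot be told apart.

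The LAPTM4B transcript itself was not higher in the libraries labelled for its activation. It had 179, 222 and 166 CPM in LAPTM4B 1, LAPTM4B 2 and 22-LAPTM4B, against 156 to 306 CPM with a median of 224 CPM in the 14 others. Among all 17 libraries the 3 ranked 14, 8 and 15 from the highest, and 2 of the 14 others (ADORA2A and 23-GOLGA8N) lay below all 3. The groups overlap throughout. The mean was 189 ± 29.7 CPM in LAPTM4B libraries (SD, n = 3) and 227 ± 43.3 CPM in the others (SD, n = 14).

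In the edgeR fit across all genes the log2 fold change of LAPTM4B was -0.23 ± 0.157 (SE), with a 95% interval of -0.55 to 0.09 (edgeR unadjusted p = 0.149). As a fold, this interval runs from 0.683 to 1.06, and its upper limit of 1.06-fold is the largest increase over these 14 libraries that lies within it. The exact two-sided permutation test, which moves the label within prefixed and within unprefixed libraries, gave a difference of -0.24 on log2(CPM + 1) with p = 0.26, where 312 assignments allow a smallest p of 0.00321. The deposited TPM gave a difference of -0.25 on log2(TPM + 1), with exact permutation p = 0.301, from 23.9 ± 5.47 TPM in LAPTM4B libraries and 29.1 ± 6.24 TPM in the others.

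Without a prefix, LAPTM4B transcript averaged 200 ± 30.9 CPM in LAPTM4B 1 and LAPTM4B 2 (SD, n = 2) and 225 ± 36 CPM in the 11 others (SD, n = 11). With a prefix, 22-LAPTM4B had 166 CPM, against 156 to 306 CPM in the 3 others. The libraries Neg, GFP and RFP, with no human gene in their labels, averaged 253 ± 24.4 CPM (SD, n = 3). At 281, 244 and 235 CPM, each lay above all 3 LAPTM4B libraries, with the prefix left out of account. They are among 7 of the 14 others that did so. With reads taken as independent counts, 95% Poisson intervals were 165 to 193 CPM in LAPTM4B 1 and 207 to 239 CPM in LAPTM4B 2. That of 22-LAPTM4B was 152 to 180 CPM, so by these intervals LAPTM4B 2 lay above LAPTM4B 1 and 22-LAPTM4B. Part of this rests on a lesser transcript, ENST00000445593.6, with 7.16, 107 and 71.6 estimated reads in LAPTM4B 1, LAPTM4B 2 and 22-LAPTM4B. The main transcript had 614, 669 and 501. Collapsing by molecular identifier is not given, so the reads may not be independent counts. A 3′ tag count of a gene in the cell's own genome does not show whether the plasmid was present, and the plasmid was not measured here.

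The gene (ENSG00000104341) lies on chromosome 8, plus strand, at 97775057 to 97853013 in GRCh38. Its reads went to 2 transcripts in these estimates. ENST00000619747.1 held 98.8% of the gene's reads in LAPTM4B 1, 86.2% in LAPTM4B 2 and 87.5% in 22-LAPTM4B, against 84.3% to 100% in the 14 others. ENST00000445593.6 held the rest, 1.15%, 13.8% and 12.5% in the 3 LAPTM4B libraries. With 3′ reads such divisions rest on the quantifier, and the ranges overlap.

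**Figure D1:**
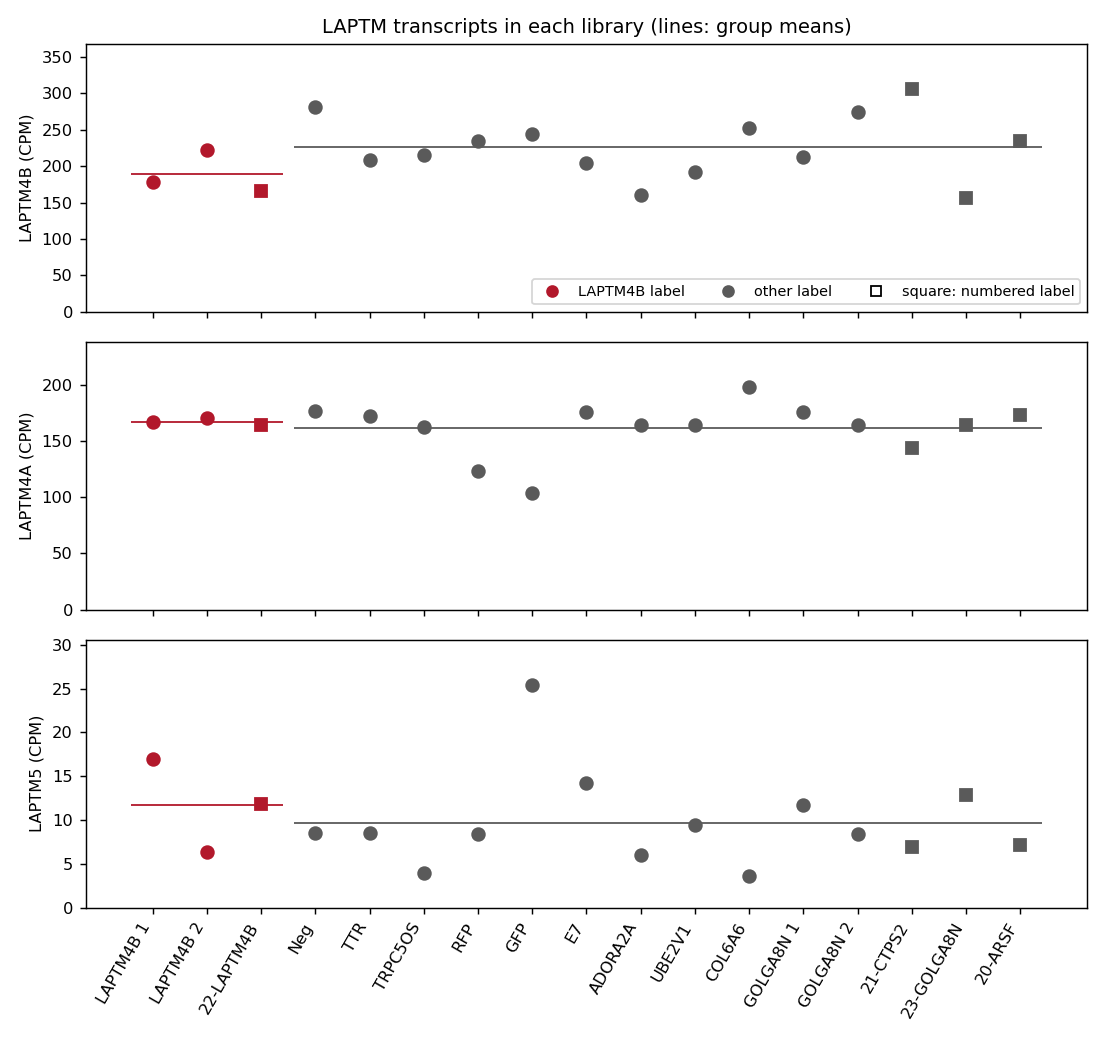
CPM of LAPTM4B, LAPTM4A and LAPTM5 in each library, LAPTM4B libraries at the left of each panel and the 14 others at the right. For LAPTM4B the 3 libraries lie at 166 to 222 CPM, inside the 156 to 306 CPM of the others.

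The paralogues did not separate the groups either. LAPTM4A had 166, 170 and 165 CPM in LAPTM4B 1, LAPTM4B 2 and 22-LAPTM4B, against 104 to 198 CPM with a median of 165 CPM in the others (log2 fold change 0.07 ± 0.16, SE). LAPTM5 was low, at 17, 6.3 and 11.9 CPM, against 3.62 to 25.5 CPM with a median of 8.46 CPM in the others (log2 fold change 0.38 ± 0.474, SE). The 95% interval of LAPTM5, 0.668-fold to 2.53-fold, is wider than that of LAPTM4A, 0.837-fold to 1.31-fold.

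Because a CRISPR activator acts at a promoter, the genes around LAPTM4B were listed as well. Of 10 neighbours on chromosome 8, 5 were tested, and 0 were called (0% of all genes tested were called in either direction). All 5 had a log2 fold change above 0, as had 50.3% of all genes tested. Their values were 0.07 to 0.62 with a median of 0.33, against 0.0025 over all genes tested, and 1 of the 5 had an unadjusted p under 0.05, as 0.541% of all genes did in that direction. POP1, a subunit of RNase P and RNase MRP, had 31.6, 48.7 and 17.6 CPM in LAPTM4B 1, LAPTM4B 2 and 22-LAPTM4B, against 9.66 to 40.2 CPM with a median of 20.8 CPM in the others. Its log2 fold change was 0.62 ± 0.285 (SE; edgeR unadjusted p = 0.0368), and 22-LAPTM4B lay below the others' median. RPL30, a protein of the large ribosomal subunit, had 1786, 2020 and 1952 CPM, against 1704 to 2081 CPM in the others (log2 fold change 0.07 ± 0.0984, SE).

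MTDH, which encodes the membrane protein also called astrocyte elevated gene 1, lies 46.3 kb from LAPTM4B. It had 89.4, 103 and 65.9 CPM, against 54.5 to 102 CPM with a median of 78.5 CPM in the others (log2 fold change 0.14 ± 0.185, SE). RIDA had a log2 fold change of 0.44 ± 0.376 (SE) and the peptidase gene CPQ one of 0.33 ± 0.431 (SE), and in both the groups overlap. With 22-LAPTM4B alone against the 3 prefixed others the values were -0.32 for MTDH, -0.48 for CPQ and -0.02 for RIDA. MATN2, the next gene after LAPTM4B, had 16.2 reads over all 17 libraries and was not tested. NIPAL2 and SDC2 had 1 and 5 reads, and TSPYL5 and ERICH5 had 0 reads.

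No gene separated the LAPTM4B libraries from the rest after adjustment. Of 13132 genes tested, edgeR called 0 at an adjusted p under 0.05, which is 0% in either direction, and the smallest adjusted p was 0.918. At an unadjusted p under 0.05 there were 226 genes (1.72%), fewer than the 657 that 13132 tests give by chance, of which 71 (0.541%) were higher and 155 (1.18%) lower. DESeq2, run on 26797 genes, called 0, with 431 at an unadjusted p under 0.05. The limma-voom fit, run on the 13132 genes, called 0, with 531. The median standard error of a log2 fold change was 0.155 for the 1284 genes at 100 CPM or more and 0.963 for the 5822 genes under 10 CPM, so at low levels only large differences could have been seen. No gene had reads in all 3 LAPTM4B libraries and 0 reads in the 14 others. Of 73 genes taken by rule other than LAPTM4B, 28 changed sign in at least 1 other choice of libraries or settings, mostly against Neg, GFP and RFP alone or among prefixed libraries alone.

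The lower genes at an unadjusted p under 0.05 include many with few reads. Of the 155, 43 had 0 reads after rounding to whole reads in all 3 LAPTM4B libraries, and the median of their mean level in the 14 others was 1.84 CPM. Among the 71 higher genes, 59 lay above the others' median in all 3 LAPTM4B libraries.

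**Figure D2:**
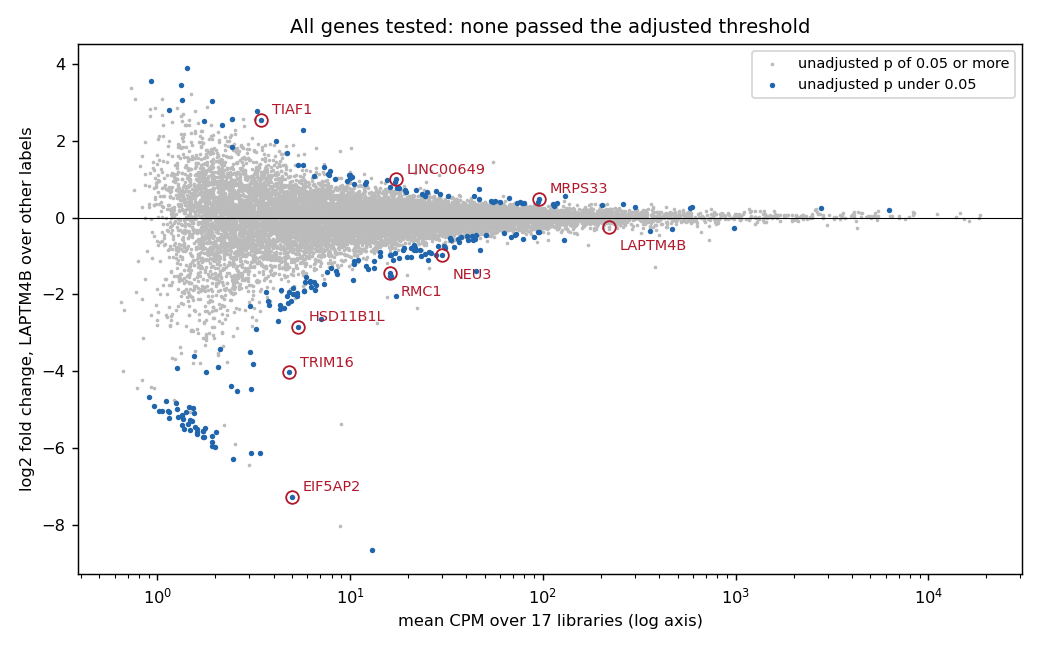
Log2 fold change, LAPTM4B libraries over other labels, against mean CPM over 17 libraries on a log axis, for the 13132 genes tested. Blue points have an unadjusted p under 0.05, and the fan at the lower left holds genes with 0 or nearly 0 reads in the LAPTM4B libraries.

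The genes with the lowest p values are given as descriptions, since the edgeR adjusted p of each is 0.918 or above. Among the higher ones, MRPS33, a protein of the small subunit of the mitochondrial ribosome, had 134, 119 and 122 CPM in LAPTM4B 1, LAPTM4B 2 and 22-LAPTM4B, against 54.3 to 118 CPM with a median of 89.6 CPM in the others. In CPM the groups do not overlap (10 genes, 0.0761% of those tested, lay higher in this way). The log2 fold change was 0.50 ± 0.177 (SE). LAPTM4B 2 at 119 CPM and GOLGA8N 2 at 118 CPM nearly touch, however, and CPM are without the TMM factors of the fit. Those were 1.01 for LAPTM4B 2 and 0.994 for GOLGA8N 2, and dividing by them reverses the order of these 2 libraries. LINC00649, a long non-coding RNA, had 38, 19 and 29.3 CPM, against 7.92 to 25.3 CPM with a median of 13 CPM in the others (log2 fold change 1.01 ± 0.319, SE). CSNK1E, the casein kinase 1 epsilon of the circadian clock and Wnt signalling, had 59.8, 50.1 and 104 CPM, against 16.5 to 66.5 CPM in the others (log2 fold change 0.76 ± 0.276, SE).

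The antisense gene AL445524.1 had 29, 28.9 and 26.5 CPM, against 1.82 to 23 CPM in the others, with no overlap (log2 fold change 0.93 ± 0.354, SE). The lowest of its other values, 1.82 CPM, is in GFP, and the strand setting of the counting is not given, so its reads cannot be told apart from those of the gene it overlaps. TIAF1 had 31.1 CPM in LAPTM4B 1 but 1.65 and 1.54 CPM in LAPTM4B 2 and 22-LAPTM4B, against 0 to 4.6 CPM in the others. Its log2 fold change was 2.55 ± 0.85 (SE) with all 3 LAPTM4B libraries and 0.35 without LAPTM4B 1. TIAF1 overlaps another gene, MYO18A, which makes its reads uncertain.

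Among the lower genes, RMC1, a regulator of the Mon1-Ccz1 complex that activates the late endosomal GTPase RAB7, had 6.46, 8.02 and 4.92 CPM, against 10.6 to 32.7 CPM with a median of 15.5 CPM in the others. The groups do not overlap (6 genes, 0.0457%, lay lower in this way), and the log2 fold change was -1.44 ± 0.404 (SE; edgeR unadjusted p = 0.00105, adjusted p = 1). NEU3, a sialidase of the plasma membrane that acts on gangliosides, had 12.6, 16.9 and 18.8 CPM, against 19 to 53.9 CPM with a median of 32.4 CPM in the others (log2 fold change -0.99 ± 0.3, SE). Its groups do not overlap, but 22-LAPTM4B at 18.8 CPM and UBE2V1 at 19 CPM lie close together. HSD11B1L, a homologue of a steroid dehydrogenase, had 0.575, 0.859 and 1.16 CPM, which is 2, 3 and 4 reads, against 2.17 to 12.6 CPM in the others.

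TRIM16, a ubiquitin ligase that takes part in the response to damaged lysosomes, had 0, 0.286 and 0.615 CPM, against 0.322 to 12.1 CPM with a median of 4.9 CPM in the others. The pseudogene EIF5AP2 had 0 reads in all 3 LAPTM4B libraries, against 6.05 ± 5.18 CPM in the others (SD, n = 14), of which 2 had 0 reads. That is at least 6.97-fold lower, against a floor of 3 reads in a library, and its edgeR adjusted p of 0.918 is the smallest of all genes (unadjusted p = 6.99e-05). Near-identical copies share the reads of EIF5AP2 and TRIM16, so both values are uncertain.

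**Figure D3:**
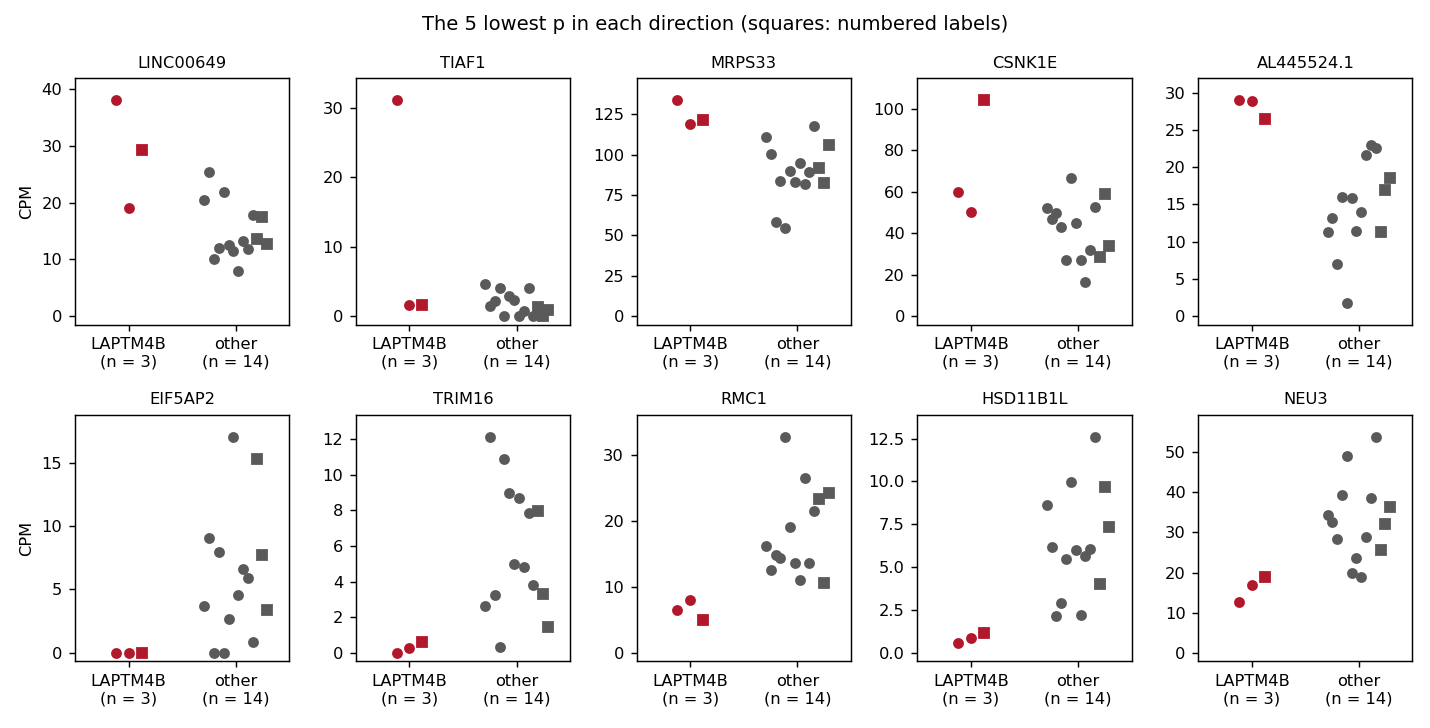
CPM in each library for the 5 higher and the 5 lower genes with the lowest unadjusted p, LAPTM4B libraries at the left of each panel and the 14 others at the right. MRPS33, AL445524.1, RMC1, HSD11B1L and NEU3 show no overlap in CPM, MRPS33 and NEU3 only narrowly. TIAF1 is high in LAPTM4B 1 alone at 31.1 CPM.

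Further genes without overlap were picked out after their values were seen. Over all genes tested, 10 (0.0761%) lay higher and 6 (0.0457%) lower without overlap. With exchangeable labels, 1 of the 680 ways to choose 3 of 17 libraries gives the highest 3, which is a larger share than either. Higher in LAPTM4B libraries was RREB1, a zinc finger transcription factor, at 32.3, 27.2 and 24.7 CPM in LAPTM4B 1, LAPTM4B 2 and 22-LAPTM4B against 8.55 to 24.5 CPM in the others. RSL1D1, a nucleolar protein of ribosome biogenesis, had 148, 132 and 133 CPM, against 61.8 to 126 CPM in the others. C16orf72 had 39, 47.9 and 36.5 CPM, against 7.27 to 35.4 CPM in the others. The glycosyltransferase gene B3GALNT2 had 6.03, 8.91 and 6.32 CPM, against 1.02 to 5.52 CPM in the others. The non-coding genes AC005261.1, LIPE-AS1 and PITPNA-AS1 were higher without overlap as well. Lower in LAPTM4B libraries was SH2B3, an adaptor that restrains cytokine receptor signalling, at 6.33, 11.7 and 10.7 CPM against 11.8 to 28.1 CPM in the others. The deubiquitinase gene USP37 had 2.01, 1.72 and 3.18 CPM, which is 7, 6 and 11 reads, against 3.48 to 12.7 CPM in the others. The zinc finger gene ZNF678 had 1.44, 0.859 and 0.868 CPM, which is 5, 3 and 3 reads, against 1.47 to 8.48 CPM. In RREB1 and SH2B3 the nearest values of the groups lie close together. No gene in these sets was called, and their edgeR adjusted p values round to 1.

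The lysosome, where LAPTM4B resides, showed no called gene. Of 37 tested lysosomal enzymes of 40 listed, 16 had a log2 fold change above 0 and 21 below, with a median of -0.02. The cysteine protease CTSB had 92.2, 112 and 78.3 CPM in LAPTM4B 1, LAPTM4B 2 and 22-LAPTM4B, against 47.4 to 96.6 CPM with a median of 73.7 CPM in the others (log2 fold change 0.41 ± 0.188, SE). IDS, the sulfatase that removes sulfate from heparan and dermatan sulfate, had 23.1, 20.8 and 32.4 CPM, against 4.58 to 28 CPM with a median of 15.8 CPM in the others (log2 fold change 0.77 ± 0.367, SE). CTSB and IDS both lay above the others' median in all 3 libraries, and their edgeR unadjusted p values were 0.0368 and 0.0438, the only lysosomal enzymes under 0.05. NAGLU, which trims heparan sulfate, had a log2 fold change of -0.70 ± 0.598 (SE).

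Of 27 tested lysosomal membrane proteins, 18 were above 0 and 9 below, with a median of 0.06 and 0 under an unadjusted p of 0.05. The lowest p was that of ABCB9, a peptide transporter of the lysosome, at 22.9, 18.4 and 16.2 CPM against 3.27 to 30.6 CPM in the others (log2 fold change 0.79 ± 0.435, SE). The cholesterol exporter NPC1 had 20.6, 25.2 and 30.5 CPM, against 10.4 to 25.8 CPM in the others (log2 fold change 0.51 ± 0.312, SE). SPNS1, a lysosomal lysophospholipid transporter, had a log2 fold change of 0.30 ± 0.193 (SE), which was -0.02 without LAPTM4B 2.

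The 17 tested subunits of the V-ATPase, the proton pump that acidifies lysosomes, stood at 7 above 0 and 10 below, with a median of -0.02. ATP6V1E1 had a log2 fold change of 0.22 ± 0.158, ATP6V1G1 one of -0.20 ± 0.145 and ATP6V0D1 one of -0.28 ± 0.216 (SE). None of the 17 was under an unadjusted p of 0.05.

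In the mTORC1 pathway, 28 of 34 listed genes were tested, with 17 above 0 and 11 below and a median of 0.06. NPRL3, a subunit of the GATOR1 complex that restrains mTORC1 when amino acids are scarce, had 37.1, 22.9 and 28.9 CPM, against 32.5 to 63.5 CPM with a median of 40.1 CPM in the others. All 3 libraries lay below that median, and the log2 fold change was -0.49 ± 0.23 (SE; edgeR unadjusted p = 0.0396). AKT1S1, the mTORC1 inhibitor PRAS40, had a log2 fold change of -0.26 ± 0.146, and the GTPase gene RRAGA one of -0.45 ± 0.288 (SE).

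Of 18 listed amino acid transporters, 15 were tested, with 8 above 0 and 7 below and a median of 0.01. SLC3A2, the heavy chain that LAPTM4B is reported to bring to lysosomes with SLC7A5, had 99.8, 121 and 252 CPM, against 115 to 256 CPM with a median of 162 CPM in the others. Here 22-LAPTM4B stood near the top of the others and LAPTM4B 1 below all of them (log2 fold change -0.19 ± 0.179, SE). For the 3 LAPTM4B libraries against Neg, GFP and RFP alone, without the prefix covariate, the value was 0.28. Only 22-LAPTM4B is prefixed there, so the prefix enters this value. SLC38A2, a transporter of small neutral amino acids, had a log2 fold change of -0.22 ± 0.221, and SLC1A5, a glutamine transporter, one of -0.12 ± 0.15 (SE).

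Ceramide and sphingolipid genes, 21 tested of 25 listed, stood at 7 above 0 and 14 below, with a median of -0.13. ASAH2, the neutral ceramidase, had 0 reads in the LAPTM4B libraries, against 1.64 ± 1.64 CPM in the others (SD, n = 14), of which 5 had 0 reads. That is at least 1.89-fold lower against the floor, with an edgeR unadjusted p of 0.0208. UGCG, which makes glucosylceramide, had 2.3, 11.2 and 4.05 CPM, against 1.82 to 35.5 CPM in the others (log2 fold change -0.98 ± 0.577, SE). SPHK1, a sphingosine kinase, had 24.7, 18.6 and 17.4 CPM, against 20 to 38.2 CPM in the others (log2 fold change -0.44 ± 0.274, SE).

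Of 22 genes of EGF receptor signalling and sorting, 15 were tested, with 7 above 0 and 8 below and a median of -0.02. STAM, which hands ubiquitinated receptors to the ESCRT machinery, had 6.61, 2.58 and 10.4 CPM, against 0 to 22.3 CPM with a median of 13 CPM in the others (log2 fold change -1.06 ± 0.54, SE). The ubiquitin ligase CBL had a log2 fold change of -0.60 ± 0.419 and the adaptor SHC1 one of -0.53 ± 0.4 (SE). The 11 tested members of the NEDD4 ligase list had 7 above 0 and 4 below, with a median of 0.20. NDFIP2, an adaptor that recruits these ligases, had 14.7, 22.3 and 11.6 CPM, against 1.82 to 16.2 CPM in the others (log2 fold change 0.51 ± 0.404, SE), and the ligase WWP1 had a log2 fold change of -0.66 ± 0.826 (SE).

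Of 43 tested endosome and ESCRT genes, 21 were above 0 and 22 below, with a median of -0.01. VPS36, a subunit of ESCRT-II, had 8.57, 4.01 and 10.1 CPM, against 4.17 to 23.6 CPM with a median of 14.1 CPM in the others (log2 fold change -0.99 ± 0.437, SE; edgeR unadjusted p = 0.0293). RAB5B, a GTPase of early endosomes, had a log2 fold change of -0.56 ± 0.303, and CHMP1B, a subunit of ESCRT-III, one of -0.71 ± 0.392 (SE). The 31 tested autophagy genes stood at 12 above 0 and 19 below, with a median of -0.06. WIPI1, which binds the lipid of forming autophagosomes, had 1.21, 0.48 and 11.5 CPM, against 1.82 to 14 CPM in the others, so that LAPTM4B 1 and LAPTM4B 2 lay below all of the others and 22-LAPTM4B did not.

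The 33 tested Golgi and coat protein genes had 14 above 0 and 19 below, with a median of -0.03. Among the COPII coat genes, SEC24C had a log2 fold change of -0.43 ± 0.217, SEC24D one of -1.29 ± 0.811 and SEC23B one of 0.53 ± 0.3 (SE). The 21 tested genes of cholesterol synthesis and uptake had 7 above 0 and 14 below, with a median of -0.14. SREBF1, which encodes a master regulator of lipid synthesis, had 15.8, 29.2 and 28.1 CPM, against 24.2 to 69.1 CPM in the others (log2 fold change -0.57 ± 0.289, SE). INSIG1, which retains the sterol sensor in the endoplasmic reticulum, had 97.8, 89.9 and 177 CPM, against 81 to 315 CPM in the others (log2 fold change -0.43 ± 0.278, SE).

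Proteins that bind antisense oligonucleotides in cells, together with RNase H1, which cuts their RNA targets, were listed as well. Of 23 listed, 21 were tested, with 15 above 0 and 6 below and a median of 0.04. NPM1, a nucleolar protein, had 2877, 3089 and 2522 CPM, against 2209 to 3013 CPM with a median of 2588 CPM in the others (log2 fold change 0.15 ± 0.106, SE). The chaperone HSP90AA1 had a log2 fold change of 0.16 ± 0.12 and the chaperonin subunit TCP1 one of 0.14 ± 0.135 (SE). Against Neg, GFP and RFP alone these were -0.03 for HSP90AA1 and -0.18 for TCP1.

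Of 24 interferon response genes, 13 were tested, with 10 above 0 and 3 below and a median of 0.22, where 50.3% of all genes tested were above 0. Several of those above 0 had few reads and an SE above the log2 fold change. Examples are OAS3 (0.87 ± 1.08), RSAD2 (0.84 ± 1.23) and IFI6 (0.48 ± 0.882, SE). IFITM2, which blocks virus entry at endosomes, had 362, 374 and 449 CPM, against 372 to 653 CPM with a median of 444 CPM in the others (log2 fold change -0.29 ± 0.13, SE; edgeR unadjusted p = 0.0338). BST2, which tethers viruses at the cell surface, had 1048, 618 and 793 CPM, against 496 to 1014 CPM in the others (log2 fold change 0.22 ± 0.179, SE). IRF1, an interferon regulatory factor, had 65.7 CPM in LAPTM4B 1 and 14.8 and 19.2 CPM in LAPTM4B 2 and 22-LAPTM4B, against 6.7 to 60.2 CPM in the others. Its log2 fold change of 0.53 ± 0.575 (SE) was -0.31 without LAPTM4B 1.

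Of the stress lists, the p53 response had 13 tested genes, 5 above 0 and 8 below, with a median of -0.09, and the integrated stress response 15 tested genes, 5 above 0 and 10 below, with a median of -0.12. In the p53 list, MDM2, the ligase that degrades p53, had 52.9, 46.7 and 49.1 CPM, against 44.9 to 84.1 CPM in the others (log2 fold change -0.26 ± 0.2, SE). In the integrated stress response list, CHAC1, which degrades glutathione, had 6.61, 0.286 and 11.6 CPM, against 2.41 to 20.9 CPM in the others (log2 fold change -0.83 ± 0.64, SE). Without LAPTM4B 2 the value for CHAC1 was -0.19, and without 22-LAPTM4B it was -1.45. HSPA5, the chaperone of the endoplasmic reticulum, had 535, 519 and 701 CPM, against 369 to 681 CPM in the others (log2 fold change 0.18 ± 0.14, SE).

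**Figure D4:**
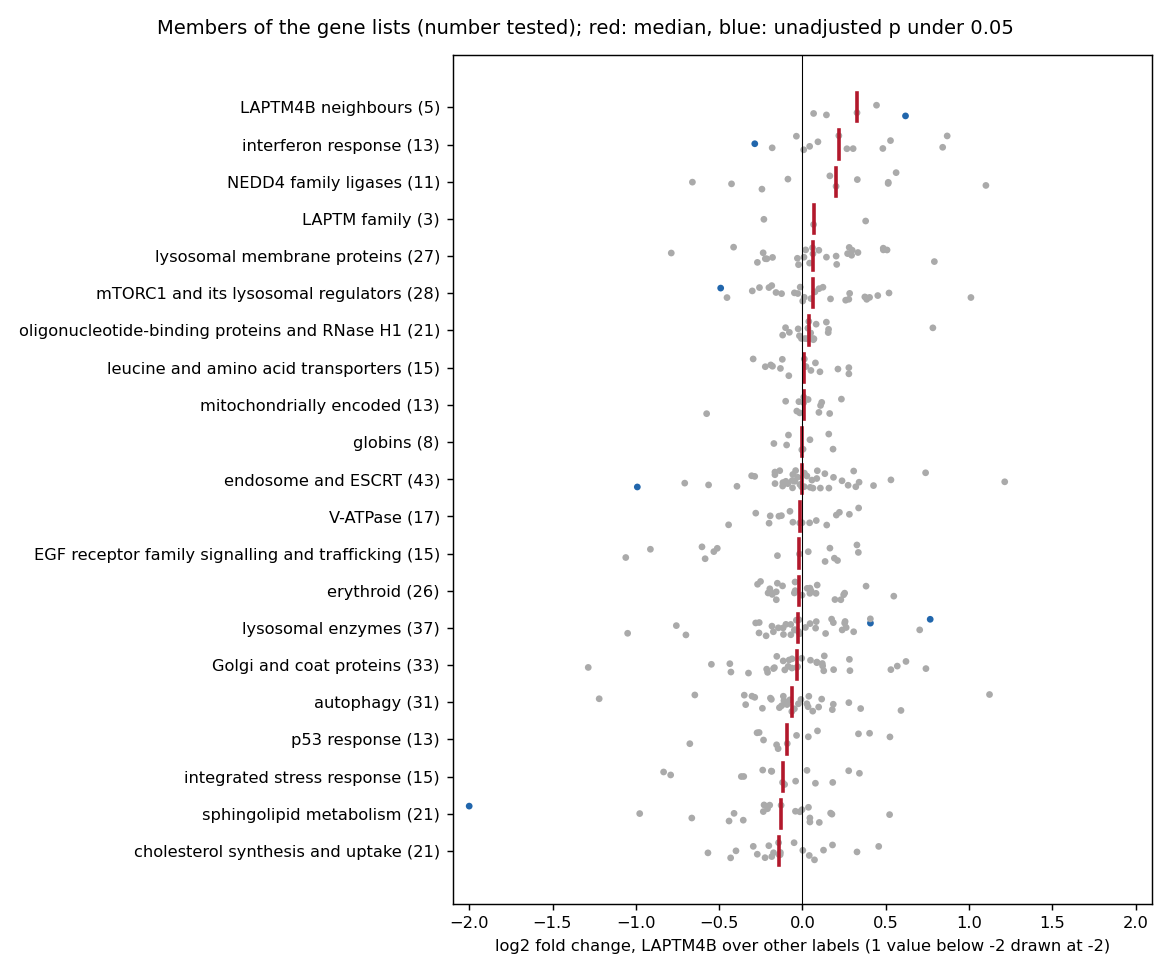
Log2 fold change, LAPTM4B libraries over other labels, for each tested member of the 21 lists, with the number tested in brackets, red lines at list medians and blue points at an unadjusted p under 0.05. List medians run from -0.14 for cholesterol genes to 0.33 for the LAPTM4B neighbours, and 1 value below -2 is drawn at -2.

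In several lists 22-LAPTM4B stood apart from LAPTM4B 1 and LAPTM4B 2. The cholesterol list summed to 1736, 1592 and 2729 CPM in LAPTM4B 1, LAPTM4B 2 and 22-LAPTM4B, against 1840 to 3013 CPM in the prefixed others and 1542 to 2699 CPM in the unprefixed ones. The integrated stress response list summed to 1364, 1236 and 2219 CPM, against 1244 to 2192 CPM in the prefixed others and 1101 to 1866 CPM in the unprefixed ones. The p53 list summed to 937, 706 and 1537 CPM, against 1125 to 1604 CPM in the prefixed others and 693 to 1228 CPM in the unprefixed ones. In each list 22-LAPTM4B lay above all unprefixed libraries. The epithelial marker list, in which KRT8 runs from 335 to 873 CPM over all libraries, summed to 1176, 1128 and 1898 CPM, against 1644 to 2018 CPM in the prefixed others and 842 to 1805 CPM in the unprefixed ones. Its part in these values was not tested.

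The erythroid programme of K562 showed no called gene. Of 8 tested globins, 4 were above 0 and 4 below, with a median of -0.00, and of 26 tested erythroid genes, 12 were above 0 and 14 below, with a median of -0.02. The alpha globin HBA1 had 563, 819 and 477 CPM, against 336 to 940 CPM in the others (log2 fold change 0.16 ± 0.231, SE). The embryonic globin HBE1 had 407, 484 and 714 CPM, against 278 to 978 CPM with a median of 527 CPM in the others (log2 fold change -0.10 ± 0.188, SE), and its log2 fold change against Neg, GFP and RFP alone was 0.69. HBA1 and HBG1 have near-identical copies, and their division of reads is uncertain. TFRC, the transferrin receptor, had 292, 353 and 250 CPM, against 266 to 440 CPM in the others (log2 fold change -0.16 ± 0.138, SE).

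The 13 mitochondrially encoded genes had 8 above 0 and 5 below, with a median of 0.01. MT-CO3, a subunit of cytochrome c oxidase, had 14786, 15751 and 14326 CPM, against 13606 to 19818 CPM in the others (log2 fold change -0.10 ± 0.0871, SE). MT-ND5, a subunit of complex I, had 3096, 2544 and 3046 CPM, against 1776 to 3452 CPM in the others (log2 fold change 0.23 ± 0.203, SE).

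Shares of all reads in genes were compared as single values per library. The 86 ribosomal protein genes took 24.3%, 24.2% and 25.3% of reads in LAPTM4B 1, LAPTM4B 2 and 22-LAPTM4B, against 21.7% (GFP) to 25.2% with a median of 24% in the others. The difference was 0.567 percentage points (exact permutation p = 0.202, adjusted over 3 shares 0.606). The mitochondrially encoded genes took 11.9%, 10.8% and 10.4%, against 9.26% to 13.1% with a median of 11.6% in the others, a difference of -0.146 points (exact permutation p = 0.817, adjusted 0.878). Globins took 0.801%, 0.901% and 0.708%, against 0.551% to 1.15% with a median of 0.813% in the others, a difference of -0.0177 points (exact permutation p = 0.878, adjusted 0.878). For ribosomal protein genes the difference against Neg, GFP and RFP alone was 1.93 points, with an exact permutation p of 0.1, the smallest that its 20 assignments allow. The prefix was not taken into account in this comparison. None of the 3 differences passed the test, and the LAPTM4B libraries overlap the others in each.

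**Figure D5:**
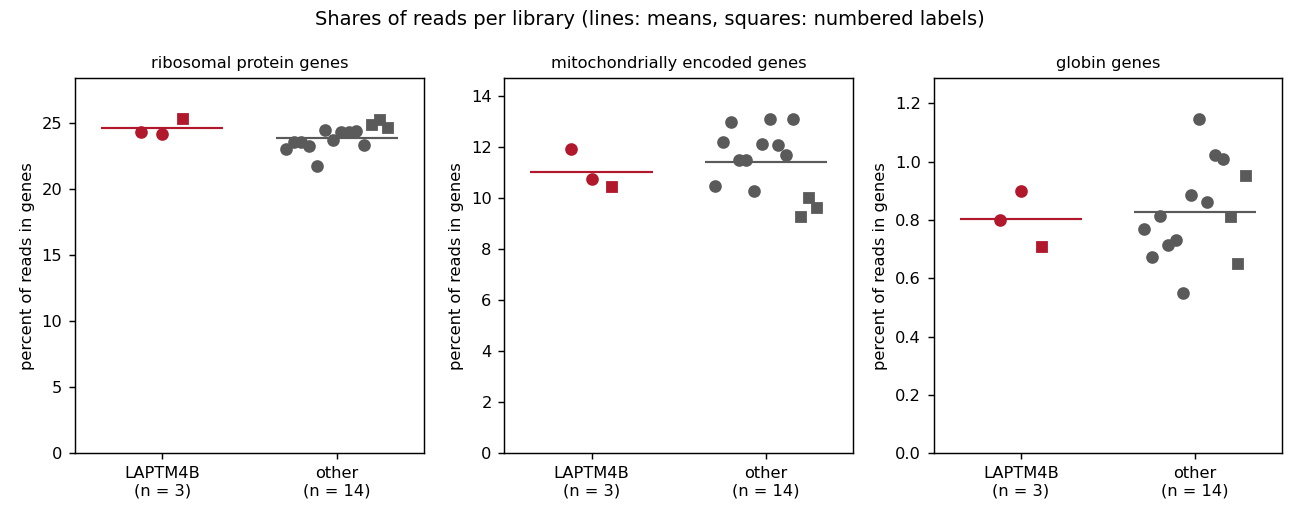
Percent of reads in genes taken by ribosomal protein, mitochondrially encoded and globin genes in each library, LAPTM4B libraries at the left of each panel and the 14 others at the right. The LAPTM4B libraries overlap the others in all 3 panels.

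The likeness of the 3 LAPTM4B libraries to each other lay within the range of their likeness to other labels. Over 5766 genes at 5 CPM or more in every library, Spearman's rho was 0.911 between LAPTM4B 1 and LAPTM4B 2, 0.892 between LAPTM4B 1 and 22-LAPTM4B and 0.877 between LAPTM4B 2 and 22-LAPTM4B. The library most like LAPTM4B 1 was ADORA2A (0.925), which was also the most like LAPTM4B 2 (0.92), and the most like 22-LAPTM4B was E7 (0.93). The median over the 14 others was 0.907 for LAPTM4B 1, 0.903 for LAPTM4B 2 and 0.893 for 22-LAPTM4B. LAPTM4B 1 with LAPTM4B 2 lay above both of their medians. Each pair with 22-LAPTM4B lay below the medians of both its members. The least like each was GFP, the shallowest library. These values are across genes, which are not independent replicates, and depth enters them.

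For each LAPTM4B library the genes with the largest ratio to the median of the 14 others are given, and for most of them at least 1 of the 14 was at or above it. In LAPTM4B 1, RHOXF2, a homeobox gene of the germ line on the X chromosome with a near-identical copy, had 86.3 CPM, against 159 CPM in Neg and 138 CPM in 23-GOLGA8N. In LAPTM4B 2, IER3-AS1 had 48.9 CPM, against 1.70 and 2.06 CPM in the other LAPTM4B libraries and at most 2.92 CPM in the others. C6orf48 had 344 CPM in LAPTM4B 2, against 16.5 and 8.18 CPM in LAPTM4B 1 and 22-LAPTM4B and 379 CPM in RFP. SRP9, a subunit of the signal recognition particle, had 36.6 CPM in LAPTM4B 2, against 71.7 CPM in COL6A6, 39.1 CPM in Neg and 0 reads in 11 of the 14 others. It has near-identical copies, which makes its value uncertain.

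In 22-LAPTM4B, the metallothionein MT1G, which binds zinc and copper, had 95.3 CPM, against 8.05 CPM in LAPTM4B 1 and 1.15 CPM in LAPTM4B 2. In the prefixed others MT1G had 56.4 CPM (23-GOLGA8N), 44.9 CPM (21-CTPS2) and 9.87 CPM (20-ARSF). Among the unprefixed others the highest was 18.5 CPM (E7), followed by 3.54 CPM (TTR), so a high level was not particular to 22-LAPTM4B. MT1H, another metallothionein, had 23.5 CPM in 22-LAPTM4B and 0 reads in LAPTM4B 1 and LAPTM4B 2, with at most 5.37 CPM in the others. SKA1, a kinetochore protein, had 26.8 CPM in LAPTM4B 1 and 36 CPM in 22-LAPTM4B but 4.82 CPM in LAPTM4B 2, and TRPC5OS had 41.7 CPM. In each of these genes at least 1 LAPTM4B library was at a low level.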

How the data were processed

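RNA was profiled in 17 libraries of K562 by 3′ tag sequencing. The authors deposited expected counts (estimated reads) and TPM for 228297 transcripts per library, with columns as Salmon writes them, per the file headers. Named in the submitters' processing notes are Salmon 0.7.2, STAR 0.7.2, UMI-tools, featureCounts and, as builds, hg38 and GRCh38, and the same version beside both tools puts that of STAR in doubt. The strand setting, and any collapsing by molecular identifier before these estimates, are not given in the sources used here.

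Gene sums of the estimated counts used GENCODE 29, to which 205336 transcripts matched. The 22961 others, with 3.32% to 3.6% of the reads, were left out. Sums were rounded, scaled by TMM, filtered with filterByExpr and tested by robust quasi-likelihood in edgeR 4.0.16 (R 4.3.3) on all 17 libraries, with the prefix as covariate, Benjamini-Hochberg adjustment and a threshold of 0.05. CPM were computed from the deposited counts, and single values were compared by exact permutation within prefixed and unprefixed libraries. DESeq2 1.42.0, limma-voom (limma 3.58.1) and other settings were alternatives. The fit was tested on simulated data.

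The genes named are the LAPTM family, tested neighbours, the 5 genes with the lowest p in each direction, up to 3 of lowest p per list and, per LAPTM4B library, the 3 with the largest ratio among genes at 10 CPM or more (pseudocount 1 CPM). A gene that the rule or the overlap picked may be not reported here. Members and lists were chosen with earlier results of these data known. Every pair of libraries with an LAPTM4B library in it differed beyond sampling noise. Poisson intervals and floors cover counting error only, and precision falls with depth.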

Additional observations from a re-analysis of the deposited data

Results flagged for a closer look

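EEF2K, the kinase that inhibits translation elongation factor 2 (ENSG00000103319, chromosome 16), was singled out because the effect of the LAPTM4B label differed between prefixed and unprefixed libraries. The difference between the 2 effects was -8.95 on the log2 scale (edgeR interaction term, adjusted p = 0.0194), a test chosen after seeing the data. EEF2K had 20.4, 8.79 and 0 CPM in LAPTM4B 1, LAPTM4B 2 and 22-LAPTM4B, against 8.23 to 25.4 CPM with a median of 17.6 CPM in the others. It was at least 25.9-fold lower in 22-LAPTM4B than in the 3 prefixed others, at 22.5 ± 2.72 CPM (SD, n = 3), against a floor of 3 reads. The fitted value depends on the prior count, is no bound, and rests on 1 library.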

How the results depend on the processing

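Of 33 alternatives, 30 called 0 genes, DESeq2 and limma-voom among them. The prefixed libraries alone gave 4 calls, all lower, and rest on 22-LAPTM4B, whose spread is assumed to be that of the others. They are GAGE13 (edgeR log2 fold change -6.49), PPP1R10 (-9.37), FAM72B (-9.37) and EEF2K (-9.12). The first 3 were also low in some libraries with other labels. GAGE13 had 68.5, 364 and 1.11 CPM in LAPTM4B 1, LAPTM4B 2 and 22-LAPTM4B, against 0 to 268 CPM (median 98.3) in the 14 others. PPP1R10 had 0, 0 and 0.00469 CPM, against 0 to 39.7 CPM (median 19.6). FAM72B had 26, 13.7 and 0 CPM, against 1.21 to 36.8 CPM (median 24.6). Without a filter on low counts 2 genes were called, EIF5AP2 (-7.27, adjusted p = 0.0162) and IER3-AS1 (4.01, edgeR adjusted p = 0.00419), which is high in LAPTM4B 2 alone. The interaction term, chosen after seeing the data, called 1. Leaving out 1 library at a time gave 0 calls each time, with 206 to 314 genes at an unadjusted p under 0.05.

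LAPTM4B had a log2 fold change of -0.42 (prefixed libraries only) to -0.15 under all alternatives, and of -0.35 to -0.15 when 1 library was left out. The replicate block, with titles 1 and 2 as blocks, gave -0.35 and 0 calls, with 302 genes at an unadjusted p under 0.05. What the titles stand for is not given, and they were not taken as pairs: the correlation of LAPTM4B 1 minus 2 with GOLGA8N 1 minus 2 was 0.11 over genes in the single pair of differences.

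The difference in the share of globins was 0.0166 points in unprefixed libraries alone, which is also the comparison without LAPTM4B replicate 3, and 0.065 against Neg, GFP and RFP alone. Its values when 1 LAPTM4B library was left out ran from -0.0611 to 0.0166, those of mitochondrially encoded genes from -0.567 to 0.372 (reversed without LAPTM4B replicate 2), and those of ribosomal protein genes from 0.5 to 0.63. Against Neg, GFP and RFP alone the last was 1.93 points. Neither this value nor the 0.065 for globins took the prefix into account.

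Of 73 named genes other than LAPTM4B, 28 changed sign in 35 comparisons, and EIF5AP2 passed without a filter. The comparisons against Neg, GFP and RFP alone were without the prefix covariate. Against Neg, GFP and RFP alone the values were 0.055 for ATP6V1G1, 0.11 for ATP6V0D1, 0.10 for AKT1S1, 0.28 for SLC3A2, 0.12 for SLC1A5, -0.026 for HSP90AA1, -0.18 for TCP1, -0.28 for IRF1, 0.36 for BAX, 0.17 for HBG1, 0.69 for HBE1 and 0.19 for SLC25A37. With 22-LAPTM4B alone against the 3 prefixed others they were 0.28 for SLC3A2, 0.073 for SLC1A5, 0.0495 for SHC1, -0.12 for NDFIP2, 0.57 for WIPI1, 0.0305 for SREBF1, -0.0354 for TCP1, 0.37 for PMAIP1, 0.23 for TRIB3, 0.15 for CHAC1, 0.18 for EPB41, 0.0217 for MT-CO3, -0.024 for RIDA, -0.32 for MTDH and -0.48 for CPQ. With the replicate block MTDH was -0.0295 and CPQ -0.0695. When 1 library was left out, LAPTM5 ran from -0.044 (without LAPTM4B replicate 1) to 0.71, IRF1 from -0.31 (without LAPTM4B replicate 1) to 0.92, SPNS1 from -0.0205 (without LAPTM4B replicate 2) to 0.48, SLC1A5 from -0.21 to 0.0072 (without LAPTM4B replicate 2) and HBA1 from -0.0279 (without LAPTM4B replicate 2) to 0.26. Without Neg, GFP and RFP, LAPTM4A was -0.0187. The cause was not tested.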
